A study of Mus musculus with 2 samples.

Results

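The genes described here encode glucose transporters, the enzymes of glycolysis, the transporters and enzymes that decide what becomes of pyruvate and lactate, and the core of the response to low oxygen. The list holds 35 genes, and all 35 had a probe whose RefSeq accession maps to the gene, out of 20143 genes so named on the arrays. They were compared between 2 cultures of bone marrow cells from C57BL/6 mice, both grown for 4 days with 5% fetal bovine serum. GM-CSF, which drives myeloid growth and maturation, was present at 40 ng/ml in both. The group GM-CSF + IL-6 also received IL-6, a cytokine of inflammation that acts through the factor STAT3, at 40 ng/ml, and the group GM-CSF ONLY did not. Such cultures are a model of myeloid-derived suppressor cells, immature myeloid cells that restrain T cells, and the labels give neither a sort nor the number of mice behind a culture. Each group had 1 array, labelled as a biological replicate, so the differences below are between 2 arrays, were not checked in replicates and carry no p-values.

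Glycolysis splits glucose into pyruvate in a preparatory phase, which spends ATP, and a payoff phase, which returns it. Mature neutrophils draw much of their ATP from it and export the lactate. Many of its enzymes exist as isozymes encoded by separate genes. When oxygen is low, the transcription factor HIF escapes the prolyl hydroxylases that mark it for destruction. It then raises glucose transporters, glycolytic enzymes and genes that divert pyruvate away from use in the mitochondria. In myeloid cells HIF can also be stabilised by inflammatory signals while oxygen is present.

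All 35 genes were measured, meaning well above background, on both arrays, and so were all 56 of their probes. The values given are fluorescence signals scaled so that the 75th percentile was equal on both arrays, with the GM-CSF + IL-6 culture first. The log2 ratio is GM-CSF + IL-6 minus GM-CSF ONLY, and each ± is a technical SD from probes printed several times, which covers spot error only. Where a gene had several probes, the brightest stood for it. The spread between different probes of a gene was wider than spot error for bright probes, with an SD of 0.09 over 1385 genes brighter than the 75th percentile. Of the 35 genes, 32 were above that percentile and 14 were in the brightest 10% of genes. Both arrays had a similar share of probes above background, 57.9% with IL-6 and 59.1% without, and 0 spots were saturated. The defining markers of the labelled cell type were bright on both arrays. Itgam had 30894 against 28465, S100a8 378143 against 355394 and S100a9 470325 against 427030. These named markers were higher with IL-6, while 6 of the 14 listed markers of suppressor cells and neutrophils were lower.

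The transcripts of glycolysis and of the hypoxia response differed little between the cultures. Their log2 ratios ran from -0.17 for Aldoc to 0.27 for Egln1, with a median of 0.03 and an SD over the 35 genes of 0.12. Of the 35, 20 lay above 0 and 15 below, where 43.8% of all 13843 measured genes lay above 0. The split was 18 and 17 with quantile normalization and in the authors' matrix, and 22 and 13 with the median over probes. Of the 32 bright members, 17 lay above 0 (53.1%), against 40% of the 8049 bright genes. The median of all measured genes was -0.02 and that of bright genes -0.03, so the list's median lay 0.05 above the former. With no filter on dim probes the median of all 20143 genes was 0.02, 53.5% of them lay above 0, and the list's median lay 0.01 above it. At a size of 1.2-fold, 1 gene was higher with IL-6 (background 6.36% of measured genes) and 0 were lower (background 5.97%). None of the 32 bright members reached that size, which 1.89% of bright genes did upward and 2.42% downward. Set against the between-probe SD, 8 of the 32 bright members lay above 0 by more than it (background 16.6% of bright genes) and 8 below 0 by more (background 29.3%). At 2-fold the count was 0 in both directions, against backgrounds of 0.282% and 0.101%. The scatter of signals shows the genes close to the line of equality over their whole range, from 79.2 for Eno2 to 362586 for Gapdh.

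**Figure D1:**
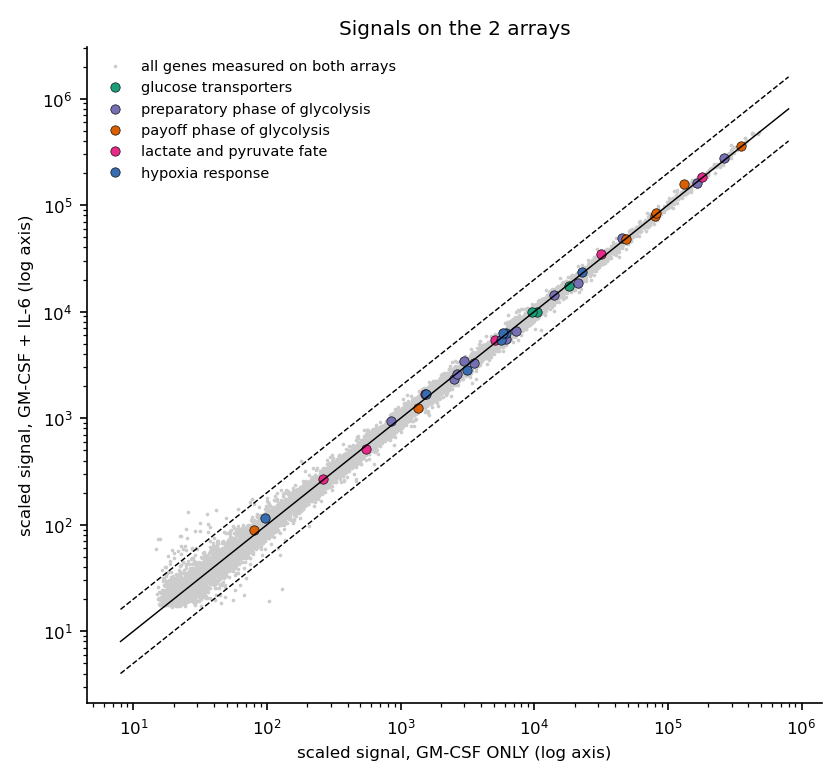
Scaled signal of each gene in the GM-CSF + IL-6 culture (vertical, log axis) against the GM-CSF ONLY culture (horizontal, log axis), 1 array each, with all 13843 measured genes in grey and the 35 genes coloured by role. The solid line marks equal signal and the dashed lines 2-fold, and all 35 genes lie between the dashed lines.

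Markers of other cell types also differed between the cultures. All 8 mast cell and basophil markers lay above 0 (median 0.20, summed signal 46499 against 41072), among them Kit at 1738 against 1510 and the protease gene Tpsb2 at 3438 against 2566, whose 2 probes lay on both sides of 0. The 7 measured monocyte and macrophage markers had a median of -0.08 (2 above 0, summed signal 100590 against 114774), of which Csf1r gave 57302 against 68231, and the 3 probes of Csf1r ran from -0.25 to 0.26. Of 9 erythroid markers with a probe, 4 were measured on both arrays (median 0.18, 3 above 0), and all 9 together gave a summed signal of 1738 against 1578. Their defining genes Alas2 and Klf1 were not well above background on both arrays. The 5 measured T and NK cell markers had a median of -0.15 (1 above 0, summed signal over 7 markers 10261 against 9698). Most of that sum was Nkg7, at 7766 against 7049, the only measured one above 0. The 6 B lineage markers had a median of -0.05 (1 above 0, 24108 against 24665) and the 5 measured stromal markers 0.24 (3 above 0, summed signal over 7 markers 5196 against 4373, most of it Lepr). The stromal marker Sparc was past 2-fold but dim, at 100.4 against 36.0 (log2 ratio 1.48 ± 0.30), and its other probe gave 0.05. Klrb1c and Ncr1 of the NK cells and Col3a1 and Cxcl12 of the stroma were not well above background. The 14 markers of suppressor cells and neutrophils had a median of 0.08 and a mean of -0.01 (8 above 0, 1681340 against 1599330). The 6 below 0 were Nos2 (log2 ratio -0.31), Mmp8 (-0.25), Cxcr2 (-0.20), Camp (-0.18), Mmp9 (-0.12) and Arg1 (-0.06). The part of these markers in the results below was not tested, and in such bulk RNA fewer cells of a type and less RNA per cell cannot be told apart.

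Slc2a1, Slc2a3 and Slc2a6 encode members of the glucose transporter family. Slc2a1, the widespread basal transporter GLUT1, had a signal of 9829 with IL-6 and 10433 without (log2 ratio -0.09 ± 0.04). Slc2a3, a high-affinity transporter, had 9981 and 9689 (0.04 ± 0.04). Slc2a6, a transporter of leukocytes and macrophages, had 17224 and 18206 (-0.08 ± 0.04), and its dimmer probe had 546.1 and 549.6 (-0.01 ± 0.07). All 3 values lay within the spread between probes of a gene. The difference of log2 ratios, Slc2a1 minus Slc2a3, was -0.13 ± 0.06, and that of Slc2a6 minus Slc2a3 was -0.12 ± 0.06.

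The hexokinases trap glucose in the cell by phosphorylating it, and the log2 ratios of their isozymes lay on both sides of 0. Hk1, the isozyme of most tissues, had signals of 14247 and 13976 (log2 ratio 0.03 ± 0.04). That probe sat in the outermost column of spots, and the other Hk1 probe had 447.0 and 392.4 (0.19 ± 0.07). Hk2, the inducible isozyme and a HIF target, was lower with IL-6 at 2350 against 2520 (-0.10 ± 0.05). Hk3, the isozyme of myeloid cells, was also lower at 6582 against 7287 (-0.15 ± 0.04). Hk1 minus Hk2 was 0.13 ± 0.07, and it was 0.29 without the outermost spots. For Hk3 minus Hk2 it was -0.05 ± 0.07.

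Gpi1 encodes the isomerase that turns glucose phosphate into fructose phosphate, and its 3 probes lay on both sides of 0. They had log2 ratios of -0.03, -0.09 and 0.03, the first at a signal of 162187 against 166060.

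Phosphofructokinase commits the sugar to glycolysis, and its subunits are encoded by Pfkl, Pfkm and Pfkp. Pfkl, the liver type that neutrophils also use, was higher with IL-6 at 3405 against 3000 (log2 ratio 0.18 ± 0.05). Pfkm, the muscle type, had the most spots of any gene here, with 8 usable on both arrays. Its mean signal was 943.5 with IL-6 and 853.3 without (0.14 ± 0.02). All 8 Pfkm spots lay above 0, with log2 ratios from 0.04 to 0.27 and an SD between spots of 0.08. The probe was printed 10 times, and with outlier spots kept Pfkm came to 0.12. Its spots are repeats on the same 2 arrays. Pfkp, the platelet type, had 2590 and 2662 (-0.04 ± 0.05) and, on its dimmer probe, 139.7 and 133.7 (0.06 ± 0.12). Pfkp minus Pfkl was -0.22 ± 0.07, and Pfkm minus Pfkl was -0.04 ± 0.06.

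Pfkfb3 and Pfkfb4 encode enzymes that make and remove the sugar bisphosphate which activates phosphofructokinase, and both were lower with IL-6. Pfkfb3, the isozyme that favours its synthesis, had 3279 against 3555 (log2 ratio -0.12 ± 0.05), and its dimmer probe had 107.2 against 116.4 (-0.12 ± 0.12). Pfkfb4 had 5521 against 6161 (-0.16 ± 0.05). Its other probe was near background and lay on the other side of 0, at 33.3 against 25.9 (0.36 ± 0.30). With the median over both probes Pfkfb4 came to 0.10.

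Aldolase cleaves the sugar bisphosphate, and its isozymes Aldoa and Aldoc stood on opposite sides of 0. Aldoa, the muscle and general type, had 277603 with IL-6 and 263447 without (log2 ratio 0.08 ± 0.04). Aldoc, named for its place in brain, had 18761 and 21119 (-0.17 ± 0.04), the lowest log2 ratio of the 35 genes. Aldoc minus Aldoa was -0.25 ± 0.06. Tpi1, the isomerase that interconverts the products of the cleavage, had 49372 and 45504 (0.12 ± 0.04) on its bright probe and 6399 and 6624 (-0.05 ± 0.04) on the other.

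HIF binds to a short DNA core, ACGTG or GCGTG, in its target genes, so the 250 bases before each annotated start were searched for both motifs on both strands. The sequences are from RefSeq in build GRCm38.p6. Windows were at hand for 33 of the 35 genes, 47 windows in all since some genes have several starts. A match stood in 38 of the 47 windows (80.9%), against 38.6% of all 32851 windows and 52.0% of the 14006 windows of measured genes. By gene, 30 of 33 (90.9%) had one, against 57.1% of 11090 measured genes. The count of CG pairs per window, which such motifs need, had a median of 14 in both the listed and the measured genes. The median log2 ratio was 0.02 for the 30 genes with a match (16 above 0) and 0.12 for Gpi1, Tpi1 and Eno2, which had none (2 above 0). Among measured genes it was -0.02 with and -0.02 without a match. A match is a description of these letters and does not show that HIF binds there.

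The windows of both aldolase isozymes and of Pfkfb4 are shown because each held 1 match, with Aldoa above 0 and the brightest probes of Aldoc and Pfkfb4 below it. Where a gene has several starts, 1 window is shown. They run 5′ to 3′ towards the start, with motif letters in capitals on either strand. Aldoa is at chr7:126799255-126799504, minus strand, Aldoc at chr11:78323948-78324197, plus strand, and Pfkfb4 at chr9:108991652-108991901, plus strand.
Aldoa: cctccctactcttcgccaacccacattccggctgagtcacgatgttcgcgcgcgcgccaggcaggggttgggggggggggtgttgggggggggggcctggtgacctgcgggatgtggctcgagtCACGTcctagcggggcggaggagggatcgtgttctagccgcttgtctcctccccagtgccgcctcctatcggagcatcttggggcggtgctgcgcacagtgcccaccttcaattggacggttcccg
Aldoc: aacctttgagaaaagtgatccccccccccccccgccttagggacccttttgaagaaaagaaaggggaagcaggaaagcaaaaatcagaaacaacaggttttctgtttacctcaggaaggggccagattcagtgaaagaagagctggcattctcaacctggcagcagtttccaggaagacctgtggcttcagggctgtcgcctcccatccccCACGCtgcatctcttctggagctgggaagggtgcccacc
Pfkfb4: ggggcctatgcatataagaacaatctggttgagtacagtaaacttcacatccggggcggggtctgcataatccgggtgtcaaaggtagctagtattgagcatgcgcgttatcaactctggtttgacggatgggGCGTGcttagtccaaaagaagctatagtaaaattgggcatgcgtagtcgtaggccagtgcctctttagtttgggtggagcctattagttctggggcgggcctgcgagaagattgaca
The match of Aldoc lay closest to the start, beginning 39 bases before it, against 126 for Aldoa and 117 for Pfkfb4.

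The payoff phase begins with Gapdh, which adds phosphate and makes NADH. Its brightest probe had 362586 with IL-6 and 351071 without (log2 ratio 0.05 ± 0.04, but -0.01 with quantile normalization and -0.02 with normexp background correction). The 7 Gapdh probes all lay above 0 with the 75th percentile scaling, from 0.00 for a probe at 183574 against 183329 to 0.25 for the dimmest, at 33778 against 28374. Another 3 of them read 0.17 to 0.18. Probes for this 1 gene thus differed by more than the spot error. The RefSeq table lists 3 pseudogenes named for Gapdh, 2 each for Aldoa, Pgk1 and Pgam1, 3 for Ldha and 1 for Ldhb, and binding of their transcripts to these probes was not tested.

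Pgk1, the first step that returns ATP, had 79832 and 80195 (log2 ratio -0.01 ± 0.04). Pgam1, the mutase that moves the phosphate, had 84083 and 80828 (0.06 ± 0.04). Pkm, the pyruvate kinase of leukocytes and the last step of the pathway, had 48123 and 48811 (-0.02 ± 0.04). These 3 bright transcripts lay within the spread between probes.

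Enolase makes phosphoenolpyruvate, and its main isozyme Eno1 had the largest difference among the bright genes of the list. Eno1 had 158863 with IL-6 and 132703 without (log2 ratio 0.26 ± 0.04, just under 1.2-fold). This probe sat in the outermost row of spots, and Eno1 had no other. Eno1b, listed as a separate gene closely related to Eno1, had 173194 against 152431 (0.18 ± 0.04) on one probe and 15909 against 14557 (0.13 ± 0.04) on the other, both inside the array. Whether the Eno1b probes also bind Eno1 transcripts, or the Eno1 probe those of Eno1b, was not tested. Eno2, the neuronal isozyme and a known HIF target, was dim at 89.9 against 79.2 (0.18 ± 0.12). Eno3, the muscle isozyme, had 1256 against 1342 (-0.09 ± 0.05). Eno3 minus Eno1 was -0.35 ± 0.07, the largest difference between isozymes, and Eno2 minus Eno1 was -0.08 ± 0.13. The Eno1 window, at chr4:150236974-150237223, plus strand, is shown as that of the brightest gene at the upper end of the list.
Eno1: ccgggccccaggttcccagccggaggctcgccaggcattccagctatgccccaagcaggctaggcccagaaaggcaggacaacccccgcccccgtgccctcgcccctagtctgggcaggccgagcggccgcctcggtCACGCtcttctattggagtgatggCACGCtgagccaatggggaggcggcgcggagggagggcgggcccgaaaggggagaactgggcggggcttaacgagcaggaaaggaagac
It held 2 matches, the nearer 89 bases before the start.

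Lactate dehydrogenase turns pyruvate into lactate and back, with Ldha favoured in cells that export lactate and Ldhb in cells that burn it. The brightest Ldha probe had 181995 with IL-6 and 179521 without (log2 ratio 0.02 ± 0.04, but -0.04 in the authors' matrix). Its other probes had 23958 against 22184 (0.11 ± 0.04) and 6543 against 5530 (0.24 ± 0.05), the last in an area of the array where at least 4 unnamed probes differed 2-fold. Ldhb had 515.6 and 554.6 (-0.11 ± 0.07). Ldhb minus Ldha was -0.13 ± 0.08, and -0.22 with the median over the Ldha probes. A window of each isozyme is shown because these windows differ in motif content, Ldha at chr7:46845554-46845803, plus strand and Ldhb at chr6:142507958-142508207, minus strand.
Ldha: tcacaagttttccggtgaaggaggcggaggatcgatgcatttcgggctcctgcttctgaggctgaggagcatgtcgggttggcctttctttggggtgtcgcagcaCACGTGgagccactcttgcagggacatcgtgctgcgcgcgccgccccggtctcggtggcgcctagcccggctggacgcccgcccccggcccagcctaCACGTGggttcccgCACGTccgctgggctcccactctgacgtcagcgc
Ldhb: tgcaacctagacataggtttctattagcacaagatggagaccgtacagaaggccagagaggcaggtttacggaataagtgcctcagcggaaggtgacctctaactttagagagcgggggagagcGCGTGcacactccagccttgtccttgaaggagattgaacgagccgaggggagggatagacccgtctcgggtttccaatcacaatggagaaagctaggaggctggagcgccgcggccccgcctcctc
This Ldha window held 5 matches, since CACGTG reads as the motif on both strands and was counted on each, and the Ldhb window held 1. The window of the other Ldha start, at chr7:46846832-46847081, also held 1.

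Monocarboxylate transporters move lactate across the membrane. Slc16a3, the exporter MCT4 of glycolytic cells and a HIF target, was higher on both probes, at 34799 against 31770 (log2 ratio 0.13 ± 0.04) and 34286 against 32060 (0.10 ± 0.04). Slc16a1, the transporter MCT1, had 267.9 and 264.0 (0.02 ± 0.12), and Slc16a1 minus Slc16a3 was -0.11 ± 0.13. Pyruvate dehydrogenase kinases switch off pyruvate dehydrogenase, which uses pyruvate inside the mitochondria. Pdk1, the kinase that HIF induces, had 1675 and 1512 (0.15 ± 0.05), and Pdk3 had 5375 and 5053 (0.09 ± 0.05). Pdk3 minus Pdk1 was -0.06 ± 0.07. In all, 5 of these 6 genes of lactate and pyruvate fate lay above 0, with a median of 0.06. Of the 5, Slc16a1 and Ldha (0.02 ± 0.04 on its brightest probe) lay within their technical SD of 0. In the preparatory phase 5 of 12 lay above 0 (41.7%), with a median of -0.04. That share was near the 43.8% of all measured genes above 0. The 7 payoff genes had 4 above 0 and a median of 0.05, and the 3 transporters had 1 and a median of -0.08. These role groups were drawn up after the values were known.

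**Figure D2:**
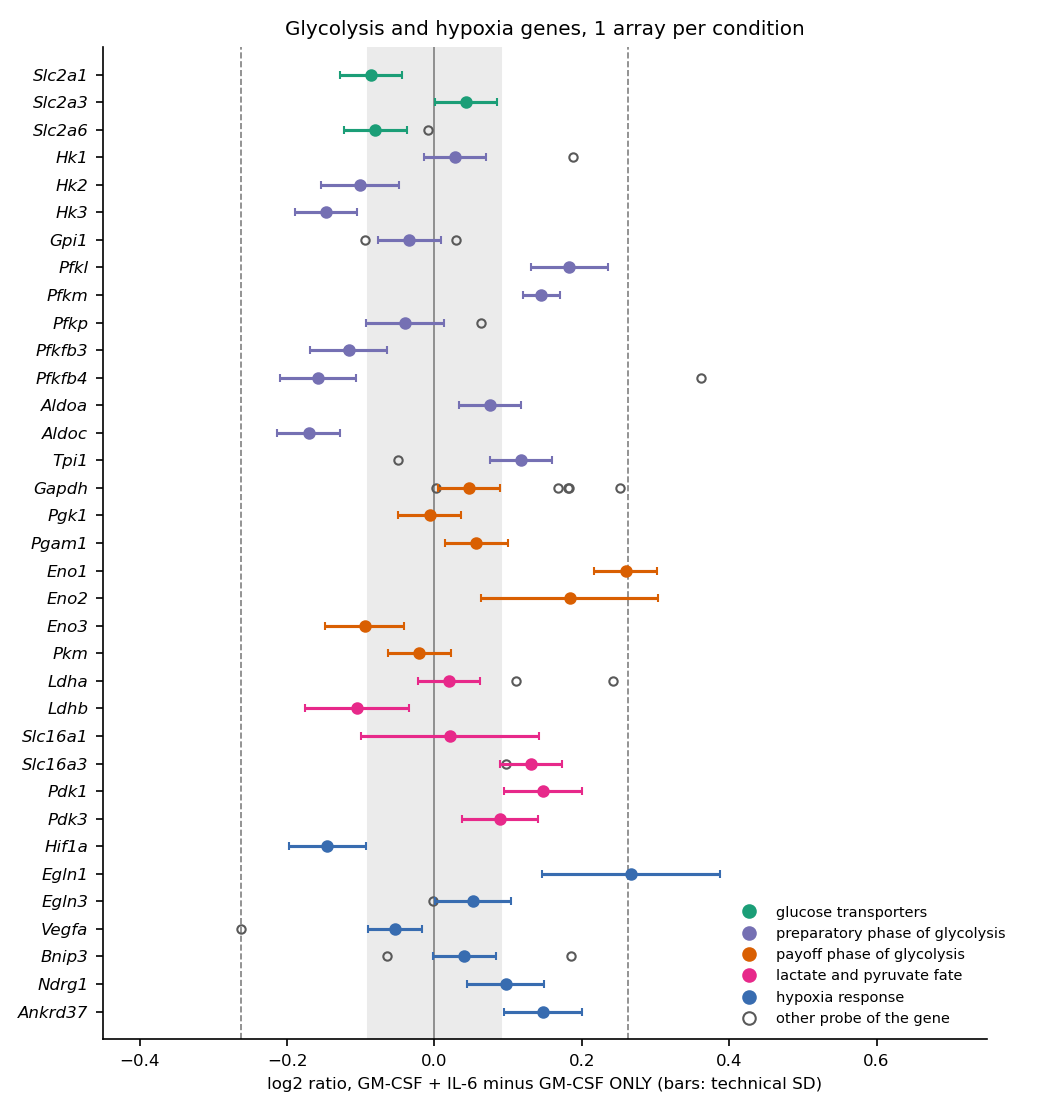
Log2 ratio (horizontal) of each of the 35 genes, ordered and coloured by role, with bars for the technical SD and open circles for the gene's other probes. The grey band is the between-probe SD of bright genes, 0.09, and the dashed lines mark 1.2-fold. Egln1 is the only filled point beyond them. Bars are drawn on the filled points only. Open circles lie further from the filled point than its bar for several genes, among them Gapdh, Ldha, Bnip3, Vegfa, Tpi1, Hk1 and Pfkfb4. The other Pfkfb4 probe was near background, with a technical SD of 0.30.

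Hif1a encodes the oxygen-regulated subunit of HIF, which is controlled mainly through the stability of its protein. Its transcript was lower with IL-6 at 2833 against 3134 (log2 ratio -0.15 ± 0.05). The prolyl hydroxylase gene Egln1, the main oxygen sensor, was the only gene past 1.2-fold, at 115.5 against 96.0 (0.27 ± 0.12), and it was dim and had 1 probe. Its log2 ratio ran from 0.23 to 0.27 over the ways of processing that kept it, and it was under 1.2-fold with quantile normalization, with normexp and in the authors' matrix. Egln3, a hydroxylase that HIF itself induces, had 6338 and 6113 (0.05 ± 0.05) and, on its other probe, 2912 and 2916 (-0.00 ± 0.05). Egln1 minus Egln3 was 0.21 ± 0.13.

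Among the targets of HIF, Vegfa, the growth factor of blood vessels, had 5389 and 5595 (log2 ratio -0.05 ± 0.04) on a probe with 2 usable spots. Its other probe carries the accession of another Vegfa transcript and had 1497 and 1796 (-0.26 ± 0.05). Ankrd37, a small ankyrin protein, had 1700 and 1535 (0.15 ± 0.05), and Ndrg1, a stress-responsive gene, had 6276 and 5870 (0.10 ± 0.05). Bnip3, which marks mitochondria for removal, had 3 probes on both sides of 0. They had 23323 against 22677 (0.04 ± 0.04), 16891 against 17654 (-0.06 ± 0.04) and 273.4 against 240.4 (0.19 ± 0.12). The Bnip3 window, at chr7:138909507-138909756, minus strand, is shown because it shared the highest count of matches, 5, with Ldha, while neither gene's brightest probe lay outside the spread between probes.
Bnip3: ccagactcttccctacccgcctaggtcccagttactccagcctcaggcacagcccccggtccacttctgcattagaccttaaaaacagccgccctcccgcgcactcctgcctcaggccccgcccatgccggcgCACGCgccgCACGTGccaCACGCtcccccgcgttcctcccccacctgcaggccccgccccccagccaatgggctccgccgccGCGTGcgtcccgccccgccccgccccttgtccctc
The 7 genes of the hypoxia response had 5 above 0 and a median of 0.05, where 43.8% of all measured genes lay above 0.

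Isozyme levels cannot be ranked from different probes, so the choice between isozymes was read only as unequal change, which does not depend on how the arrays were scaled by a constant. Among 14 pairs, 6 differed by more than 0.13, the between-probe SD times the square root of 2. Those were Slc2a1 and Slc2a3, Hk1 and Hk2, Pfkp and Pfkl, Aldoc and Aldoa, Eno3 and Eno1, and Egln1 and Egln3. The limit came from bright genes only, and Egln1 was dim. The combined technical SD of Egln1 minus Egln3 was 0.13, as large as the limit, so the limit cannot decide that pair. Of all pairs of bright genes, 45% differed by more than 0.13. Of the 11 pairs with both genes bright, 5 did. Slc2a1 and Slc2a3 and Hk1 and Hk2 lay at the limit, and the count ran from 5 to 8 over the alternatives. With the stricter filter, and with array positions left out, it was 5 of 12 pairs. The limit of the main setting was used in all of them. Hk1 minus Hk2 was within it in the authors' matrix and with cyclic loess (0.12 in both), and Slc2a1 minus Slc2a3 with normexp (-0.08). Ldhb minus Ldha passed it with the median over probes and with normexp, Pfkfb4 minus Pfkfb3 with the former and Eno2 minus Eno1 with the latter. Pfkp minus Pfkl and Aldoc minus Aldoa were beyond it in all 11 settings, the main one included. Eno3 minus Eno1 and Egln1 minus Egln3 were beyond it in all 10 settings that gave them a value, though the limit cannot decide the latter pair. The plot of isozyme differences shows the pairs with Eno3, Aldoc and Pfkp furthest below 0.

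**Figure D3:**
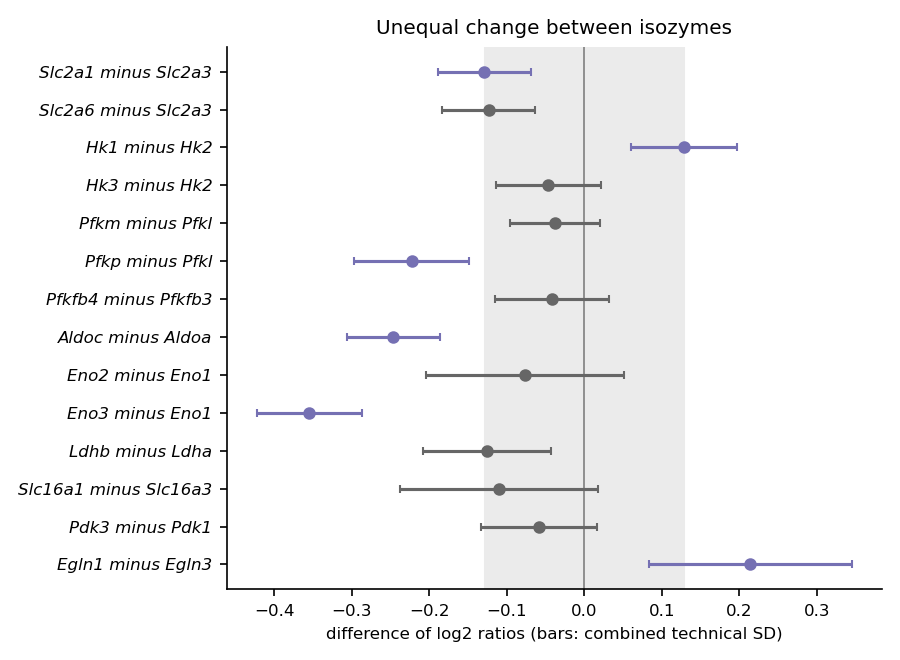
Difference of log2 ratios between the genes of each isozyme pair (first minus second), with bars for the combined technical SD, 1 array per condition. The grey band is the between-probe SD times the square root of 2, 0.13 on either side of 0, and the 6 coloured pairs lie beyond it, from -0.35 for Eno3 minus Eno1 to 0.21 for Egln1 minus Egln3. The band was taken from bright genes, and Egln1 was dim.

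The medians of other gene lists of these pathways also lay close to 0. The 15 genes of the HIF machinery had a median of 0.02, with 8 above 0. At 1.2-fold, 1 was higher (background 6.36% of measured genes) and 1 lower (background 5.97%). Epas1, which encodes a related oxygen-regulated subunit, had 5758 against 4734 (log2 ratio 0.28 ± 0.05), but its 3 probes ran from -0.18 to 0.54. Cited2, an inhibitor of HIF, had 14155 against 13111 (0.11 ± 0.04), with -0.09 on its other probe. Lowest were the coactivator Ep300 at 777.8 against 936.8 (-0.27 ± 0.07) and Arnt, the partner subunit of HIF, at 1353 against 1608 (-0.25 ± 0.05), whose other probe gave 0.01.

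Of 33 other hypoxia targets, 31 were measured, with a median of -0.01 and 14 above 0. At 1.2-fold, 2 were higher (background 6.36% of measured genes) and 0 lower (background 5.97%). Both that passed, Plod2 and Car12, were near background, at 53.6 against 32.9 (log2 ratio 0.71 ± 0.30) and 50.9 against 41.4 (0.30 ± 0.30), and they are named after their values were seen. Outside the lowest 25% by signal, the ends of the list were Stc2 (212.4 against 177.7, 0.26 ± 0.12) and Ddit4, an inhibitor of mTOR (4937 against 4381, 0.17 ± 0.05). At the lower end stood the glycogen regulator Ppp1r3b (9995 against 11417, -0.19 ± 0.04) and Bnip3l, a relative of Bnip3 (12837 against 14455, -0.17 ± 0.04).

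Of 21 other isozymes and side steps of glycolysis, 16 were measured, with a median of -0.08 and 5 above 0. At 1.2-fold, 1 was higher (background 6.36% of measured genes) and 2 lower (background 5.97%). The 2 lower were the urate transporter Slc2a9 (143.8 against 174.2, log2 ratio -0.28 ± 0.12) and the sugar mutarotase Galm (246.0 against 296.5, -0.27 ± 0.12). The higher one, the liver and red cell pyruvate kinase Pklr, was near background at 27.6 against 19.7 (0.48 ± 0.30). Outside the lowest 25%, the highest were Pgam5 at 2935 against 2889 (0.02 ± 0.05) and Pfkfb1 at 372.8 against 378.1 (-0.02 ± 0.12). Despite its name and its place in this list, Pgam5 encodes a mitochondrial protein phosphatase. Hkdc1, Slc2a4, Slc2a5 and Fbp2 were among those not well above background on both arrays.

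Of 12 genes for the entry of pyruvate into mitochondria and its use there, 11 were measured, with a median of -0.05 and 3 above 0. At 1.2-fold, 1 was higher (background 6.36% of measured genes) and 1 lower (background 5.97%). Pdk2, another kinase of pyruvate dehydrogenase, was the higher one, dim at 127.1 against 105.5 (log2 ratio 0.27 ± 0.12) and named after its value was seen. Pdp1, a phosphatase that switches pyruvate dehydrogenase on, was the lower one and had 397.8 against 481.6 (log2 ratio -0.28 ± 0.07), and Pdp2, its relative, had 560.4 against 476.1 (0.24 ± 0.07). Mpc1, of the pyruvate carrier, had 20065 against 22135 (-0.14 ± 0.04), and Pcx, pyruvate carboxylase, had 337.5 against 305.4 (0.14 ± 0.12). The 10 genes of the pentose phosphate pathway, which makes NADPH, had a median of -0.02 with 4 above 0. At 1.2-fold, 0 were higher or lower (background 6.36% and 5.97% of measured genes). Most of the 10 were bright, and of bright genes 1.89% were higher and 2.42% lower at that size. They ran from H6pd (1648 against 1803, -0.13 ± 0.05) and Tkt (70765 against 77383, -0.13 ± 0.04) to Rpia (4032 against 3849, 0.07 ± 0.05) and Prps1 (4076 against 3571, 0.19 ± 0.05).

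**Figure D4:**
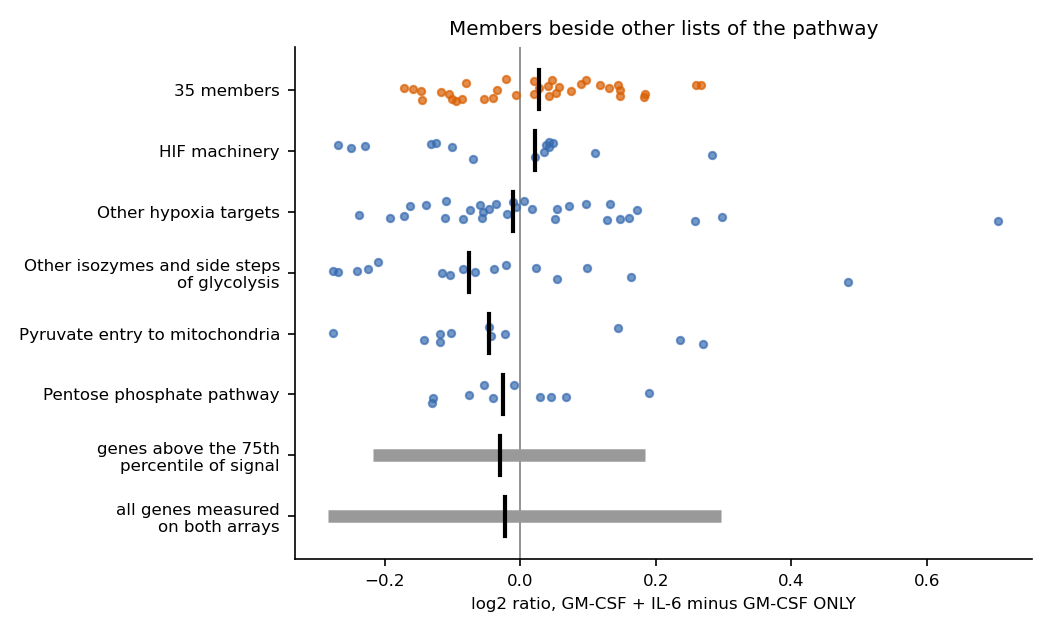
Log2 ratios (horizontal) of the 35 genes in orange and of the measured genes of 5 related lists in blue, with a black line at each median. The grey bars run from the 5th to the 95th percentile of bright genes and of all measured genes, and the medians of all 6 lists lie between -0.08 and 0.03.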

How the data were processed

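Total RNA of 2 cultures, 1 per condition, was hybridised in 1 channel, Cy3, to 1 Agilent array each, per the labels. The deposited spot intensities were extracted, per the file headers, by Agilent Feature Extraction 10.7.1.1 with detrending on and separate background correction off. The authors' deposited matrix holds log2 values; set against the scanner signals (r = 0.99998 on both arrays) they are quantile-normalized and not centred per gene.

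Each array's processed intensity was divided by its own 75th percentile, taken without control spots, and log2 transformed; the percentile was 486.2 with IL-6 and 549.7 without. Printed signals are scaled to their geometric mean. Outlier spots were left out and the spots of a probe averaged. A probe was measured where at least 50% of its spots were well above background. Probes were named by RefSeq accession without version through a table of assembly GRCm38.p6. The technical SD was taken from the spot-to-spot spread of the log2 ratio in 272 probes that kept 5 or more usable spots, in 6 level classes from 0.30 (dim) to 0.04 (bright), divided by the square root of the spots averaged. The fold sizes were 1.2 and 2. With 1 array per group the number of arrays limits the precision.

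All 35 members were accounted for by rule. From each pathway list the 2 highest and 2 lowest genes outside the lowest 25% by signal were named. The members and lists were chosen with earlier results of these data known. Results were recomputed with the authors' matrix, with normexp (offset 50), with cyclic loess, quantile normalization or median centring, with dim probes all kept or more strictly removed, with outlier spots included, with a gene's probes summarised by their median, and with positions left out (outermost spots and 9 tiles of 16 by 12 spots with at least 4 unnamed probes 2-fold apart). Tools were Python 3.11.15, numpy 2.4.6, pandas 2.3.3, matplotlib 3.10.9 and, for normalization, R 4.3.3 with limma 3.58.1, and the scripts were tested on simulated data.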

Additional observations from a re-analysis of the deposited data

How the results depend on the processing

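The median over the 35 genes stayed between 0.02 and 0.04 under all 10 alternatives, and the counts at 2-fold and of genes 1.2-fold lower stayed at 0. The count at 1.2-fold higher was 0 with quantile normalization, 0 with the authors' matrix and 0 with the stricter filter, which drops Egln1. With normexp it was 1, Eno1 (0.30) in place of Egln1. The counts of all genes 1.2-fold higher and lower, 881 and 826, came to 414 and 310 with normexp, 2145 and 1978 without a filter and 274 and 328 with the stricter filter. Of the 35 genes, 29 kept their side of 0 in every setting that gave them a value, 17 above and 12 below; the other 6 were Pfkp, Pfkfb4, Gapdh, Ldha, Vegfa and Egln3, the last at 0 with normexp. Single log2 ratios moved by more than their technical SD in 29 recomputations, 15 of them with normexp, and by less in 318, and the cause was not tested. Hk1 minus Hk2 came to 0.2085 with the median over probes, 0.3067 with normexp and 0.2885 without crowded tiles and outermost spots, where Hk1 takes its other probe and Eno1 has no value. Hk3 minus Hk2 was 0.0379 with normexp. With the median over probes Ldhb minus Ldha was -0.2164 and Pfkfb4 minus Pfkfb3 0.2191. The median of the other isozymes was -0.0204 without a filter on dim probes, and that of pyruvate entry 0.0064 with normexp. Signal over background limits Egln1, Eno2 and Slc16a1. No paired analysis was possible because there was a single array for each condition.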
